A study of Mus musculus with 6 samples.

Results

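The major urinary protein (Mup) genes were followed in liver RNA of mice given a calf blood extract or saline. The genes taken by name were Mup1, Mup2, Mup3, Mup4, Mup5, Mup6, Mup20 and Mup21, 8 of the 22 Mup genes that RefSeq places in 1 run on mouse chromosome 4. Of these 8 genes 7 had a matched probe on the array, with 9 probes in all, and Mup1 had none. The array named 20659 genes, 14807 of which were kept and tested. A further 3 Mup genes with 1 probe each, Mup17, Mup18 and Mup19, were used for comparison.

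Major urinary proteins are small lipocalins that the liver secretes into the blood and that pass into urine, where they bind volatile pheromones and release them slowly. In mouse liver their transcription is higher in males and is driven by the pulsatile secretion of growth hormone, acting through the receptor kinase JAK2 and the transcription factor STAT5b, and it also responds to testosterone, thyroid hormone and glucocorticoids. The genes arose by repeated duplication, so that their transcripts, in particular those of the middle of the run, are close to identical.

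The animals were male ICR mice, an outbred stock, of 18 to 22 g, which the labels describe as 24 mice in groups of 12. Control mice received saline and the other group deproteinized extract of calf blood (DECB), each given into the stomach daily for 35 days, in a volume of 0.08 mL for every 20 g of mouse. The sample descriptions instead give 1 day for controls and 30 days for DECB, so the length of dosing is not settled, and age is not given. The study also kept mice of both groups in closed containers to time their tolerance of hypoxia, and the labels do not say whether the livers came before or after that.

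Each group had 3 arrays, control 1, 2 and 3 and DECB 4, 5 and 6. The labels do not say which mouse each array came from, so the p-values speak only for the spread between the samples at hand, and that spread may be technical. Controls 2 and 3 correlated at r 0.992, and the other pairs of arrays at 0.901 to 0.968. An alternative below takes controls 2 and 3 as 1 sample. Arrays with the same scan time are called a slide here, since no slide name was read. Control 1 and DECB 6 made up slide 1, controls 2 and 3 and DECB 4 slide 2, and DECB 5 slide 3. Slide 1 was dim, with a 75th percentile of the processed signal of 78.8 and 84.8 against 422 to 551 on the other arrays, and 14925 to 16352 probes well above background against 24132 to 29517. It stands apart from the other slides, and the differences of the Mup genes, the list medians and the genes called are therefore given within slides too. A fit with slide as a block compares the groups within slides 1 and 2 only, since DECB 5 is alone on slide 3. Of 13 measured hepatocyte markers, all well above background on every array, 0 were called, and their median difference was -0.19 (-0.11 within slide 1 and -0.083 within slide 2).

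In the RefSeq gene order (GRCm38.p6) Mup4 opens the run, followed by Mup6, Mup7 and Mup2. At its other end Mup5, Mup20, Mup3 and Mup21 are the last 4 genes. Promoter windows were at hand for 5 members, each from 250 bases before to 50 bases after the start of the gene. They are shown because the 5 genes they belong to all had a difference of the same sign and because growth hormone is known to act on Mup transcription. The Mup4 window is chr4:59960618-59960917 (minus strand), the Mup6 window chr4:60003231-60003530 (plus strand), the Mup2 window chr4:60139807-60140106 (minus strand), the Mup3 window chr4:62087268-62087567 (minus strand) and the Mup21 window chr4:62150792-62151091 (minus strand), all of GRCm38.p6. They are written 5′ to 3′ on the strand of the gene, and capitals mark matches to the TATA box letters TATAAA.
Mup4 promoter window: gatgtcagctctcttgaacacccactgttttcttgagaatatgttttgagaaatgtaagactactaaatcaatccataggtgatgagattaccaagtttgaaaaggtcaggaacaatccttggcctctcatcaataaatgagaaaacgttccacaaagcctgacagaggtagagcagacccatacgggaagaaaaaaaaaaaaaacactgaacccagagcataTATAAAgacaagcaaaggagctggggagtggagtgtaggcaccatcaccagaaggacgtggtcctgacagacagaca
Mup6 promoter window: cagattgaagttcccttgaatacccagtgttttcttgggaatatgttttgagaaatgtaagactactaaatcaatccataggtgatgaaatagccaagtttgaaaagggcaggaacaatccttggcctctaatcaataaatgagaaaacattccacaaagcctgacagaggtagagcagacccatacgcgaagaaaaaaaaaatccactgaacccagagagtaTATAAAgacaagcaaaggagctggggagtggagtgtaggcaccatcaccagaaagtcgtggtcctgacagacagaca
Mup2 promoter window: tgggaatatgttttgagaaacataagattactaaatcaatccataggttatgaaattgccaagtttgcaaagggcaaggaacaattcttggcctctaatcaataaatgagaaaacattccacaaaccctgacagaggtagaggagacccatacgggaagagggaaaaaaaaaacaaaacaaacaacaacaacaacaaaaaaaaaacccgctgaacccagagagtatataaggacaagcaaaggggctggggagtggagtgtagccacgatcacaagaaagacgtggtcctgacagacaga
Mup3 promoter window: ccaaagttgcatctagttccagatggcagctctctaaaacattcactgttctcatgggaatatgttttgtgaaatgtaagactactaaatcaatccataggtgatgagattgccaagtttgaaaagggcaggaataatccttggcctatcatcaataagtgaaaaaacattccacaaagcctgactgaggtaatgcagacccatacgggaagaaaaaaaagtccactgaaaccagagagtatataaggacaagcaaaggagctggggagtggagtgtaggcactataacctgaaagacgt
Mup21 promoter window: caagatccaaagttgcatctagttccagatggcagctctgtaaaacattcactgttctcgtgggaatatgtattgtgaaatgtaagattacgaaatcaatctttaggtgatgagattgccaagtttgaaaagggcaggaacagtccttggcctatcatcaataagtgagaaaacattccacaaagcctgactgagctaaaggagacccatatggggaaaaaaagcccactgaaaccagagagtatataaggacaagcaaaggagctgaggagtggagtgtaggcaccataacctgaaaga

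The windows of Mup3 and Mup21, neighbours in the run, were identical at 93.9% of 294 aligned bases, and those of Mup6 and Mup2 at 93.2% of 263. The least alike, Mup6 and Mup21, were identical at 85.5% of 275 aligned bases. TATAAA was found 27 bases before the start in Mup4 and in Mup6, directly before gacaagcaaagg. The other 3 windows did not hold these exact letters. Directly before the same gacaagcaaagg they read TATAAG, which differs in its last letter. Of all 32851 RefSeq windows of this length, 13.6% hold TATAAA on either strand. The STAT5 letters TTCNNNGAA, held by 8.3% of all windows, and the C/EBP letters TTGCNNAA, held by 10.8%, were in none of the 5 windows on either strand. A match is a description of the letters, and its absence here says nothing about binding. That may lie outside the window or at letters that differ from those searched.

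All 7 measured Mup genes had higher mean signal in DECB livers, by 0.53 to 2.06 on the log2 scale, and none passed the test. The median difference of the 7 genes was 0.99, or 0.81 within slide 1 and 1.1 within slide 2, against -0.03 over all 14807 genes. In limma with Benjamini-Hochberg adjustment 0 of 7 were called at an adjusted p under 0.05, where 0.466% of all genes were called and 0.209% of all genes were called higher, and the lowest adjusted p of the 7 was 0.0983, for Mup5. With every probe fitted on its own, 0 of 9 probes were called, where 0.0354% of all probes were called higher. At an unadjusted p under 0.05, 4 of 7 were higher (Mup2, Mup5, Mup20 and Mup21), against 4.22% of all genes. In 5 of 7, all 3 DECB arrays lay above all 3 control arrays, against 7.24% of genes with a value on every array. Without slide 1 this held for 7 of 7, against 26.5% of genes, a count added after the data were seen. The exact two-sided permutation p of each of those 5 was 0.1, the smallest that 3 arrays against 3 allow. The 7 share arrays, and may share signal through their near-identical transcripts, so they are not 7 independent measurements. Levels below are log2 of the processed signal minus the 75th percentile of the array, so that 1 unit is a doubling, and the level of one probe is not comparable with that of another.

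**Figure D1:**
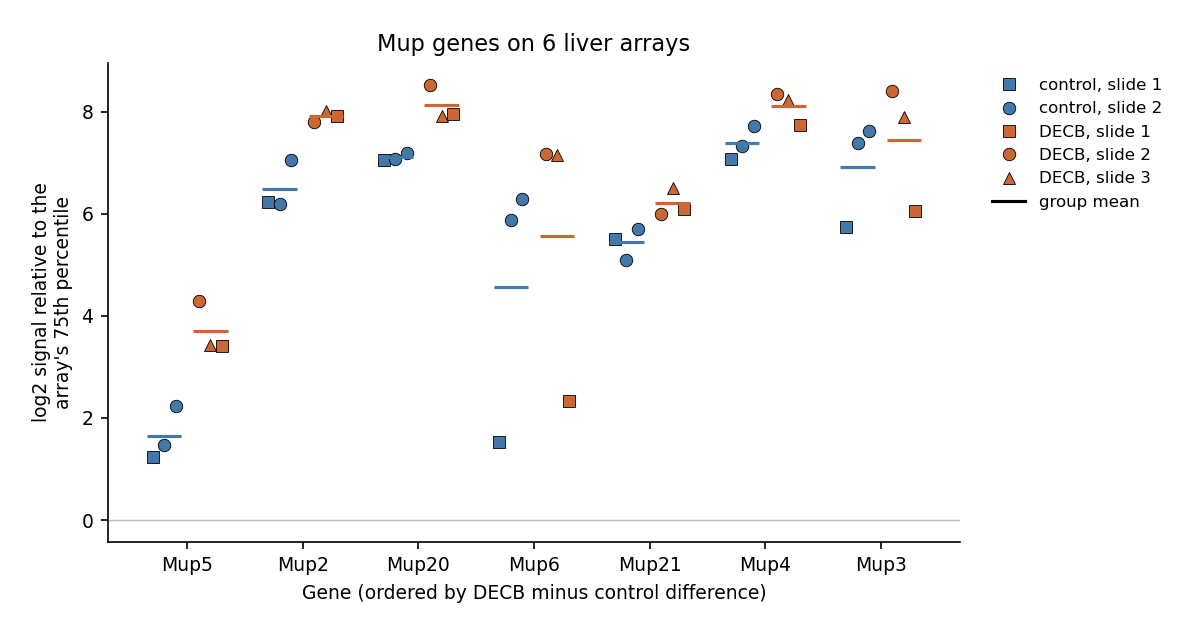
Level of the 7 measured Mup genes on each array (vertical axis, log2 signal above the 75th percentile of that array; horizontal axis, genes in order of their difference). Each point is 1 array, coloured by group and shaped by slide, and short lines are group means; Mup3 and Mup6 are the genes whose groups overlap, with both slide 1 arrays far below the rest.

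Mup2 encodes one of the abundant urinary proteins of the adult male. Its level was 6.23, 6.19 and 7.05 on control 1, 2 and 3 and 7.79, 8.02 and 7.91 on DECB 4, 5 and 6. The 3 DECB arrays lay close together and above every control, and among the controls the third was the highest. The group means were 6.49 ± 0.48 and 7.91 ± 0.12 (SD, n = 3 each), a difference of 1.42 (SE 0.33), or 2.67-fold, with an adjusted p of 0.151 in limma. Within slide 1 it was 1.68 and within slide 2 it was 1.17.

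Mup20 encodes darcin, the male urinary protein that females recognise as a pheromone. On its brighter probe the controls read 7.05, 7.07 and 7.19 and the DECB arrays 8.53, 7.92 and 7.96. The controls were nearly level, and every DECB array stood above them, DECB 4 the most. The difference was 1.03 (SE 0.29), 2.05-fold, from 7.10 ± 0.08 to 8.14 ± 0.34 (SD, n = 3 each), with an adjusted p of 0.240 in limma. It was 0.92 within slide 1 and 1.40 within slide 2. With slide as a block the difference was 1.19 (SE 0.19) and was called (adjusted p 0.0386, limma), where 2.73% of genes were called higher. The other Mup20 probe read 4.95, 4.96 and 6.25 in controls and 7.77, 7.40 and 6.37 in DECB. Its groups did not overlap either, but control 3 came near DECB 6, and its difference was 1.79 (SE 0.52, adjusted p 0.325 over all probes in limma).

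Mup21 lies at the end of the run. It read 5.51, 5.10 and 5.71 in controls and 6.0, 6.50 and 6.10 in DECB. The groups did not overlap, by a gap about as large as the SD of either group. The difference was 0.76 (SE 0.30), 1.70-fold, from 5.44 ± 0.31 to 6.20 ± 0.26 (SD, n = 3 each), with an adjusted p of 0.464 in limma, and 0.59 and 0.60 within slides 1 and 2.

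Mup3 and Mup6 differed more between slides than between groups. Mup6 read 1.53, 5.87 and 6.29 on control 1, 2 and 3 and 7.18, 7.15 and 2.34 on DECB 4, 5 and 6. Both arrays of slide 1 were low, so the groups overlapped, yet within each slide that held both groups the DECB array was higher, by 0.81 on slide 1 and 1.1 on slide 2. The processed signal itself was 227 and 429 on slide 1 and 24649 to 75165 elsewhere. The mean of slide 1 minus that of the other arrays was -4.69, and 7 of 14807 genes lay further below. Over all 6 arrays the difference of Mup6 was 0.99 (SE 1.68, adjusted p 0.984 in limma), smaller than the spread within either group (4.56 ± 2.64 and 5.56 ± 2.79, SD, n = 3 each). Without control 1 it turned to -0.52 and without DECB 6 it was 2.60, as each of these leaves slide 1 in 1 group alone.

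For Mup3 the controls read 5.74, 7.39 and 7.63 and the DECB arrays 8.41, 7.89 and 6.05. Again the low arrays were the pair on slide 1, whose mean minus that of the rest was -1.94, and 748 genes lay further below. The difference was 0.53 (SE 0.74, adjusted p 0.967 in limma), from 6.92 ± 1.03 to 7.45 ± 1.24 (SD, n = 3 each). It was 0.31 within slide 1 and 0.90 within slide 2, and without control 1 it was -0.060. Over all tested genes 15.9% were at least 1 log2 unit lower on slide 1, and the median gene was 0.22 higher there. Why these probes were low on slide 1 was not tested.

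Mup4 and Mup5 are better known from the lacrimal, nasal and salivary glands than from liver. Mup4 read 7.07, 7.34 and 7.72 in controls and 8.34, 8.24 and 7.75 in DECB on its brighter probe. The DECB arrays were all above the controls, although DECB 6 exceeded control 3 only slightly. The difference was 0.73 (SE 0.32), 1.66-fold, from 7.38 ± 0.32 to 8.11 ± 0.32 (SD, n = 3 each), with an adjusted p of 0.516 in limma, and 0.67 and 0.82 within slides 1 and 2. A dimmer Mup4 probe was well above background on 1 control and 2 DECB arrays only. It read -4.25, -5.38 and -3.65 in controls and -1.71, -0.87 and -4.48 in DECB, so that DECB 6 lay among the controls, and within slide 1 its difference was -0.23. Averaging both probes would raise the Mup4 difference to 1.40. Over the 6 arrays the brighter probe had a Pearson r of 0.849 with the dimmer one. Its highest r with any Mup probe, 0.986, was with the dimmer Mup20 probe. Whether the brighter probe reads Mup4 alone was not tested.

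Mup5 had the largest difference of the 7 genes. It read 1.23, 1.47 and 2.23 in controls and 4.29, 3.42 and 3.40 in DECB. The lowest DECB array was more than 1 unit above the highest control. The difference was 2.06 (SE 0.40), 4.17-fold, from 1.64 ± 0.52 to 3.71 ± 0.51 (SD, n = 3 each), with an adjusted p of 0.0983 in limma, and 92 of 14807 genes had a larger one. Within slide 1 it was 2.17 and within slide 2 it was 2.44. With slide as a block it was 2.32 (SE 0.28) and was called (adjusted p 0.0287, limma). DECB 5, alone on its slide, adds nothing to the differences of that fit. The Mup5 and Mup20 calls there thus rest on DECB 4, DECB 6 and the 3 controls, with 2 residual degrees of freedom.

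**Figure D2:**
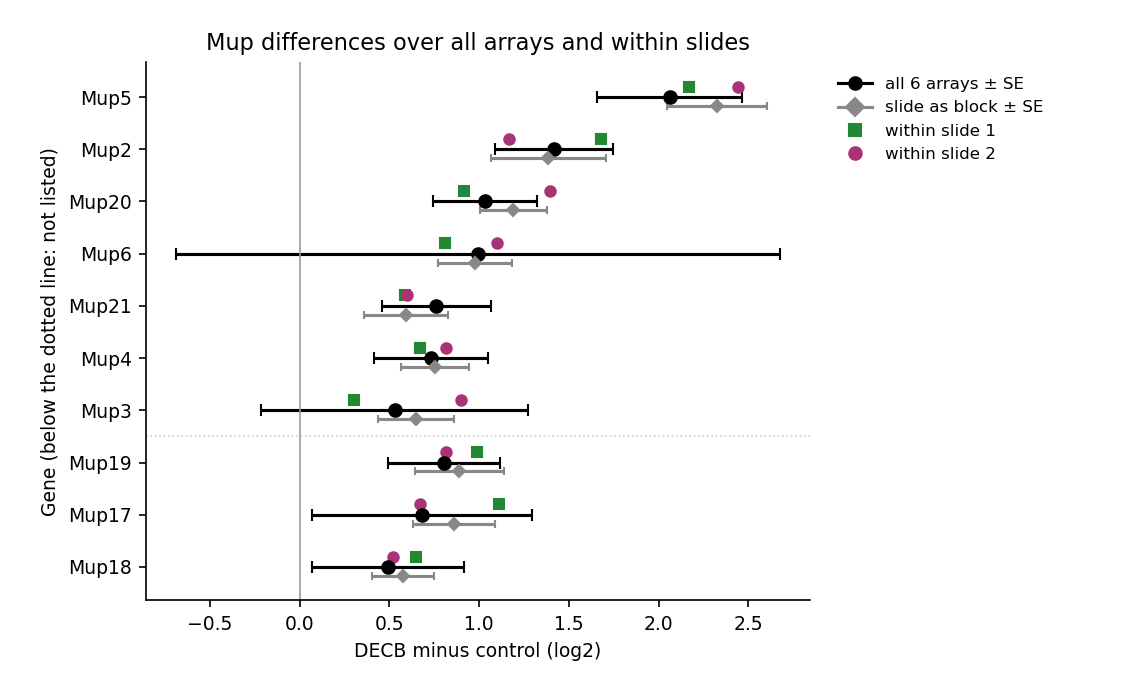
DECB minus control difference (horizontal axis, log2) of the 10 Mup genes measured, listed genes above the dotted line. Black circles are the fit over 6 arrays and grey diamonds the fit with slide as a block, both with SE; green squares and purple circles are the differences within slide 1 and within slide 2, all of which lie above 0.

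Mup17, Mup18 and Mup19, adjacent genes in the run, had differences of 0.68, 0.49 and 0.80 (SE 0.61, 0.42 and 0.31; adjusted p 0.872, 0.860 and 0.447, limma). Within slides 1 and 2 they were 1.11 and 0.67 for Mup17, 0.65 and 0.52 for Mup18, and 0.99 and 0.82 for Mup19. Mup19 alone of these had all DECB arrays above all controls. Over the 10 Mup genes measured the median difference was 0.78, and 10 of 10 lay above 0, against 47.5% of all genes. Whether each probe reads only its named transcript was not tested, since probe sequences were not used here. No spot was saturated, the highest raw Mup signal being 239730 against a scanner limit of 778060.

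The pathway that drives liver Mup transcription was looked at through 23 measured genes of growth hormone and STAT5 signalling, of which 0 were called higher and 1 lower, where 0.257% of all genes were called lower. The list median was 0.14, or 0.22 within slide 1 and -0.10 within slide 2. The receptor gene Ghr, the kinase gene Jak2 and the STAT gene Stat5b had differences of -0.20, 0.06 and -0.27, each smaller than its SE (0.54, 0.26 and 0.33). Igf1, the circulating growth factor made under growth hormone, differed by 0.05 (SE 0.41), and Igfals, its binding partner in serum, by 1.00 (SE 0.36, adjusted p 0.400 in limma). Inhibitors of signalling from the receptor gave 1.79 (SE 0.61) for Cish, 1.5 (SE 0.40) for Socs3, 1.84 (SE 0.54) for Socs1 and 1.59 (SE 0.27) for the phosphatase gene Ptpn1, with adjusted p from 0.0689 to 0.367 in limma. Socs1 was well above background on 2 of 3 controls. The groups of Cish overlapped, and its difference was 2.19 within slide 1 and 0.81 within slide 2. Socs2, another such inhibitor, read 3.62, 2.47 and 2.07 in controls and 0.30, 1.14 and 2.33 in DECB. Its groups overlapped, with the lower array of each slide the DECB one, and the differences were -1.29 within slide 1 and -1.97 within slide 2. With slide as a block 3 of the 23 were called higher (Ptpn1, Socs1 and Igfals, adjusted p 0.0221, 0.0178 and 0.0468) and 2 lower (Cux2 and Socs2, adjusted p 0.0196 and 0.0336) in limma, where 2.73% of all genes were called higher and 3.92% lower. The gene called was Cux2, a repressor of male-biased genes that is itself female-biased. All 3 controls and no DECB array read it well above background. The controls alone thus carried it through the filter on dim probes, and its p-value is not independent of that filter. It was at least 10.7-fold lower in DECB (adjusted p 0.0265, limma), and it read lower in DECB within both slides. Such a bound sets the bright group against the lowest signal well above background, or the gene's own where higher, on each dim array.

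Other male-biased liver genes, chosen like the rest of the lists with earlier results of these data known, lay above 0 in 23 of 27 measured, with a median of 0.67 (0.51 within slide 1 and 0.84 within slide 2), and 1 was called higher and 0 lower, where 0.209% of all genes were called higher. Blocking by slide, 5 were called higher (Nudt7, Keg1, C6, Ihh and Egfr) and 0 lower in limma. Of all genes that blocked fit called 2.73% higher and 3.92% lower. The gene called was Nudt7, a peroxisomal hydrolase of coenzyme A esters, at 3.14, 3.06 and 3.60 in controls and 6.07, 5.47 and 5.26 in DECB. Its groups lay far apart, with a difference of 2.33 (SE 0.33, adjusted p 0.0489 in limma), or 2.12 within slide 1 and 2.74 within slide 2. Groups did not overlap in 11 of the 27 with DECB higher, against 7.24% of all genes, and in 1, the cytochrome gene Cyp2d9, with DECB lower (-0.78, SE 0.29), against 9.4%. Hsd3b5, a steroid dehydrogenase of male liver, read -4.09, -4.96 and -1.51 in controls and -0.70, 1.37 and 1.69 in DECB (adjusted p 0.149 in limma). No fold is given for it, because 2 of 3 controls were not well above background.

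Female-biased genes gave the opposite picture, with 1 of 29 above 0, a median of -1.40 (-1.44 within slide 1 and -2.07 within slide 2), and 4 called lower and 0 higher. Over all genes 0.257% were called lower. With slide as a block 13 were called lower and 0 higher in limma, where 3.92% of all genes were called lower. In 19 of the 29 all DECB arrays lay below all controls, against 9.4% of all genes. Hamp2, a relative of the iron hormone hepcidin, fell by 2.66 (SE 0.35, adjusted p 0.0386 in limma), with differences of -3.10 and -2.66 within slides 1 and 2. Hao2, a peroxisomal oxidase, was at least 6.58-fold lower (adjusted p 0.0352, limma) and read lower in DECB within both slides. All 3 controls and no DECB array read it well above background. Cux2 was also among the genes called. Hao2 and Cux2 passed the filter on dim probes through the controls alone, so their p-values are not independent of that filter. The calls of the main fit rest on all 6 arrays. Leaving out any single array but DECB 6 left 0 genes called higher and at most 2 called lower, and without DECB 6 there were 18 higher and 35 lower.

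**Figure D3:**
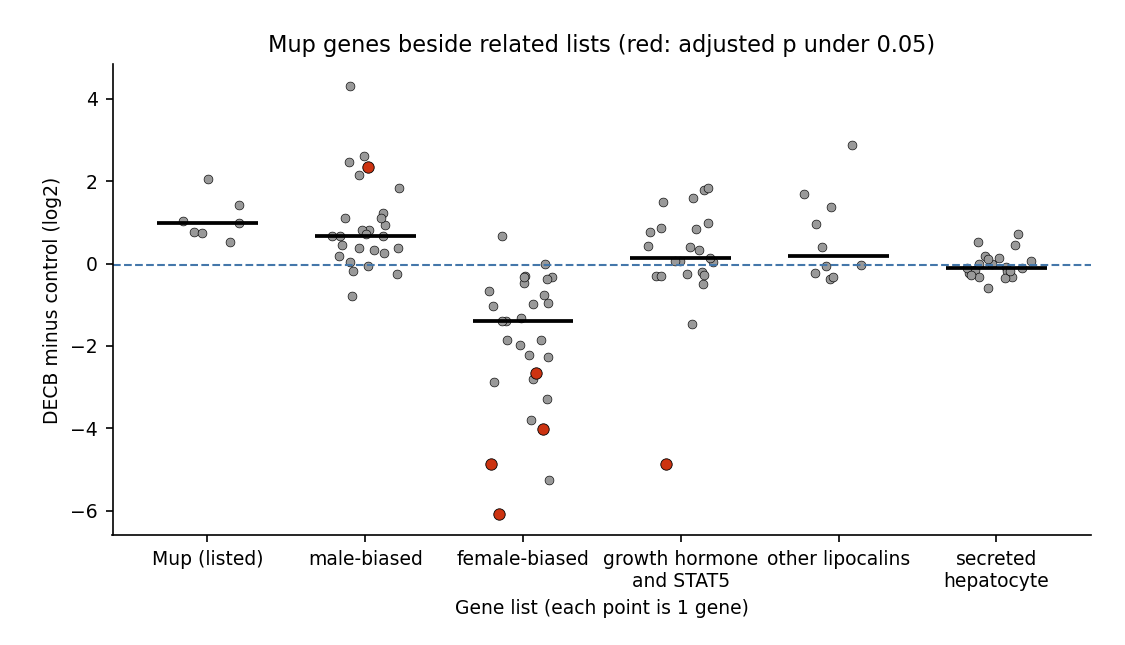
DECB minus control difference (vertical axis, log2) of each measured gene in 6 lists (horizontal axis). Points are genes, red where the adjusted p was under 0.05, black lines are list medians and the dashed line is the median of all genes; the listed Mup genes have a median of 0.99, male-biased genes 0.67, female-biased genes -1.40 and secreted hepatocyte proteins -0.10.

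Among the other liver lipocalins, 0 of 10 were called in either direction, 5 lay above 0 and the median was 0.18 (0.33 within slide 1 and 0.29 within slide 2). Lcn2, an iron-scavenging protein of the acute phase, had the largest difference (2.89, SE 0.43, adjusted p 0.0514 in limma), 2.46 within slide 1 and 3.68 within slide 2, and the acute-phase carriers Orm1, Orm2 and Orm3 gave 0.97, 1.37 and 1.68. In the fit with slide as a block Lcn2, Orm2 and Orm3 were called higher (adjusted p 0.0242, 0.0342 and 0.0434, limma). The share of all genes called higher in that fit was 2.73%. Rbp4, the retinol carrier of plasma, differed by -0.33. The most abundant secreted proteins of hepatocytes, which like the Mup proteins leave the cell for the blood, had 0 of 21 called, 7 above 0 and a median of -0.10, with the albumin gene Alb at -0.08 (SE 0.27). Their median was -0.098 within slide 1 and 0.041 within slide 2, and 0 were called with slide as a block. Whether the Mup genes differ from these lists was not tested. Genes that respond to the other hormones known to act on Mup transcription gave 0 of 13 called and a median of -0.32 for glucocorticoids and 0 of 9 called and a median of -0.24 for thyroid hormone. Within slides 1 and 2 these medians were -0.48 and 0.088 for the glucocorticoid list, and -0.15 and -0.17 for the thyroid list. The same blocked fit in limma called 1 higher and 1 lower of the 13, and 3 higher and 1 lower of the 9. The 3 called higher were Thrsp, Bcl3 and Dio1, with differences of 1.5 (SE 0.30), 2.34 (SE 0.46) and 0.86 (SE 0.29) over the 6 arrays. Each had all DECB arrays above all controls, against 7.24% of all genes, and 0 of the 9 had them all below. The gene called lower in both lists was Klf9 (difference -0.93, SE 0.60), whose groups overlapped. In the glucocorticoid list DECB arrays were all above controls for Lcn2 and all below for Fkbp5 and Pck1.

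Markers of other cells were read because whole liver holds them, and because Mup4 and Mup5 are gland genes. Summed over the measured genes of each list, in multiples of the array's 75th percentile, 5 salivary and lacrimal markers of 8 reached 40.0 to 44.4 in controls and 27.0 to 40.8 in DECB, with Prol1, Smr3a and Dcpp1 not kept. Amy1 and Prlr, which other tissues also express, made up most of that sum; the list median was 0.42 (0.48 within slide 1 and -0.043 within slide 2), with 3 of 5 above 0. Bpifa2 and Pip, secreted by the glands, had differences of 0.66 (SE 0.44) and 0.44 (SE 0.29) and were well above background on 4 of 6 arrays each. Their groups overlapped. Amy1 and Klk1, 2 of the 5, lay lower on all DECB arrays than on all controls, against 9.4% of all genes. They had differences of -0.65 (SE 0.26) and -0.57 (SE 0.32), and Klk1 was well above background on 4 of 6 arrays. The 5 of 6 erythroid markers summed to 168 to 278 in controls and 36.1 to 104 in DECB, and 3 of them, all haemoglobin genes, lay lower on all DECB arrays, against 9.4% of all genes. Alas2, the haem synthesis enzyme of red cells, had a difference of 0.88 (SE 0.40), and the list median was -1.73 (-1.98 within slide 1 and -0.78 within slide 2). The 3 of 5 neutrophil markers summed to 1.58 to 6.97 and 3.76 to 8.63, with Ly6g and Mpo not kept. Of these S100a8 and S100a9 were higher on every DECB array than on every control, as were 5 of the 7 Mup genes, with differences of 1.57 each (SE 0.31 and 0.38; adjusted p 0.101 and 0.167, limma), 1.37 and 1.5 within slide 1 and 1.69 and 1.77 within slide 2, while Elane gave 0.33 (SE 1.01). The 4 of 6 cholangiocyte markers summed to 1.21 to 7.44 and 2.37 to 32.1, with Krt7 and Epcam not kept and a median difference of 0.88 (1.21 within slide 1 and 0.34 within slide 2). Cftr made up most of the highest sums. It read -1.74, 2.73 and 2.75 in controls and 2.79, 4.96 and -0.27 in DECB. Its groups overlapped (difference 1.25, SE 1.62), with both slide 1 arrays low. Median differences were -0.31 for 8 macrophage, -0.16 for 6 endothelial, -0.44 for 6 stellate and 0.27 for 5 lymphocyte markers. In that order they were -0.21, -0.14, -0.16 and -0.035 within slide 1 and 0.24, 0.035, -0.69 and 0.57 within slide 2. None of these markers was called over the 6 arrays. When slide was a block, S100a8 and S100a9 were called higher (adjusted p 0.0311 and 0.0216) and the endothelial gene Stab2 lower (adjusted p 0.0465) in limma. Among all genes 2.73% were called higher and 3.92% lower in that fit. The part of cell makeup in the Mup values was not tested. In whole tissue, fewer cells of a type and less RNA per cell cannot be told apart.

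Likeness was described for 1 gene, Mup4. Among the listed members its probe had the highest mean signal over all arrays, a choice that says nothing of its transcript level against that of other genes. Likeness to the family's other genes was left out. The comparison was taken over 6 arrays and 14003 genes outside the family with an established symbol. The profiles most like it by Pearson's r were Slc10a2, the bile acid transporter of ileum and bile ducts (0.993), Saa2, an acute-phase apolipoprotein (0.991), Capzb (0.990), Krt80 (0.989) and Nlk (0.989). The most opposed were Pde9a and Rbm3 (both -0.993), Entpd2 (-0.992), Fmo2 (-0.990) and Coq6 (-0.990). The arrays share slides and groups, 133 genes had an r above 0.9, and with 6 points such values are a description only.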

How the data were processed

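Liver RNA was hybridised to Agilent 1-colour arrays, and each deposited file is the scanner output of 1 array, made with Agilent Feature Extraction 11.0.1.1 per the submitters' processing notes. The processed Cy3 signal is an intensity that the software had background-subtracted, per the file headers, with no scaling between arrays. The deposited value table holds log2 values; the authors' steps behind it are not given in the sources used here, and it entered no comparison.

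From these, log2 values of that signal were taken and the 75th percentile of the array subtracted, without control spots (1377) and outlier-marked spots. Probes had to be well above background on 3 or more of the 6 arrays (25423 of 39429 passed), and a gene was its brightest kept probe. Accessions were matched to RefSeq symbols (27234 of 28684 probes; 12195 probes were unnamed). The array design is of an older build, so genes carry no coordinates, and promoter windows carry those of GRCm38.p6. Promoter identity came from global alignment (Biopython 1.88), over aligned bases without gaps. Groups were tested with limma 3.58.1 in R 4.3.3 (lmFit, eBayes, two-sided, Benjamini-Hochberg over all genes or all probes). The code was checked on simulated normal values with no slide effect. Every gene there had the same spread, taken from controls 2 and 3, so the check says nothing about slide effects in these arrays. With 3 arrays a group, their number limits the precision.

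Named genes were all listed members, the genes of each list called or of smallest p, and, for 1 member, the 5 genes most and least like it; core pathway genes, Socs2, Cyp2d9, and Alb were added after their values were seen. A gene that this rule takes is not reported here. The members and lists were chosen with earlier results of these data known. Alternatives covered background, scaling, filters, slide, probe choice, outlier spots, controls 2 and 3 as 1 sample, array weights, variance trend and leave-one-out. The normexp alternative used median signals, since mean signals were not used here.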

Additional observations from a re-analysis of the deposited data

Results flagged for a closer look

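The deposited log2 value table, which no comparison used, also held the Mup probes. Its 6 columns share a median of 5.34, and each correlated with the scanner values of its own array at r from 0.742 to 0.775 across probes, yet 4 of the 6 arrays correlated best with another array's column, so how it was normalized, and whether its columns follow the arrays they are named for, stay unknown. Of its 12 Mup probes, 2 had every DECB column above the highest control column. The share of all probes that do so was not computed, so the count is a description only. For the brighter Mup4 probe the lowest DECB column was 4.89 against a highest control of 4.79, and for Mup6 they were 4.76 against 4.0. For the other 10 Mup probes, columns of 2 DECB arrays exceeded the highest control, and for Mup2 these were 7.98 and 7.40 against 4.57, with DECB 5 at 4.37. For the dimmer Mup4 probe they were only 2.53 (DECB 4) and 2.41 (DECB 5) against 2.35. Mup3 and Mup21 also read 2.41 in the DECB 5 column.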

How the results depend on the processing

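No paired analysis was possible because the groups share no replicate number; arrays that share a slide were instead compared within slides and with slide as a block. The median difference of the Mup genes stayed between 0.67 and 1.40 over 21 alternatives, and differences of Mup2, Mup4, Mup5, Mup20 and Mup21 stayed above 0 in each of the 20 that gave a value per gene. Leaving out 1 array gave -0.060 to 1.23 for Mup3 and -0.52 to 2.60 for Mup6; both were lowest without control replicate 1 and highest without DECB replicate 6. The count of Mup genes called was 0 in all but 2 settings. It was 2 with slide as a block and 3 with array weights (Mup2, Mup5 and Mup20). Over all genes these settings called 403 and 466 higher, against 31 in the main fit. Leaving out each array gave 0 Mup genes called. Scaling by the array median moved the median of all genes from -0.03 to -0.16 and that of the Mup genes to 0.87.

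The counts over all genes, 31 higher and 38 lower, were less stable. They were 16 and 23 with quantile normalization, 0 and 0 with no filter on dim probes (1257 genes at an unadjusted p under 0.05 in limma), 403 and 578 with slide as a block, 0 and 2 with controls 2 and 3 averaged (884 at an unadjusted p under 0.05), 466 and 755 with array weights, and 9 and 14 over single probes. Leaving out 1 array gave 0 to 18 higher and 0 to 35 lower; where it gave 0 higher, 853 to 1344 genes had an unadjusted p under 0.05. Fewer samples enter these fits; the cause of the other shifts was not tested. The dimmer Mup4 probe, well above background on 3 of 6 arrays, had a difference of -0.23 within slide 1.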
